A study of Homo sapiens with 9 samples.

Results

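Keratin genes were examined in ATAC-seq peak lists of HepG2, a human liver cancer cell line. In ATAC-seq, accessible DNA is tagged by a transposase that carries the sequencing adapters. The members were the protein-coding genes named KRT with a number and an optional letter A, B or C, which gave 55 of the 20163 protein-coding genes of the annotation. Cells had received, for 72 hours and at 50 nM with a lipid transfection reagent, either the non-targeting control siRNA NTG or 1 of 2 siRNAs against INO80 (siINO80#1 and siINO80#2). INO80 is the motor subunit of the INO80 chromatin remodeling complex. Each group had 3 replicates (A, B and C) of the same cell line, for 9 samples in all, and no group was left without siRNA. The 3 replicates of a group share 1 peak list, so nothing was measured per replicate, and a difference between lists has no replicate error beside it. The INO80 level in these samples was not analysed here.

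Keratins form the intermediate filaments of epithelial cells, and each filament pairs a type I keratin with a type II keratin. KRT8 and KRT18 are the pair that hepatocytes and other simple epithelia make. KRT19 and KRT7 are found in duct cells, such as those of the bile duct, and KRT20 in the intestine. Most of the other keratins serve stratified epithelia such as skin, the hair shaft or the root sheath of the hair follicle. The human genes stand in a type II cluster on chromosome 12, which also holds the type I gene KRT18, and a type I cluster on chromosome 17, which also holds genes of keratin-associated proteins of hair (KRTAP). The name of the set calls most of these genes silent in HepG2. No RNA was measured here, so the name was checked against peaks only, and a gene without a peak is not shown to be closed or unexpressed.

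By the annotation, 27 members lay on chromosome 12 and 28 on chromosome 17, with 29 of type I and 26 of type II. For each list, peaks were assigned to a gene when they overlapped its body or 5 kb on either side by at least 1 bp. A peak within reach of neighbouring genes, as between KRT8 and KRT18, between KRT15 and KRT19, and between KRT81 and KRT86, was counted for both, so genes are not independent. At least 1 list had a peak at 16 members, and 39 members had none in any list. The 27 distinct regions, made by merging overlapping peaks of the lists, came from 16 peaks in NTG, 16 in siINO80#1 and 11 in siINO80#2. Of these regions, 13 lay at KRT8, KRT18 or KRT19.

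The sequences at the summits of 5 of these regions are shown because each carries the AP-1 motif TGACTCA, which JUN and FOS proteins bind and which is counted by class in the results. They were read from GRCh37 on the plus strand, without annotated untranslated regions, and the capitals mark every match to AP-1, to the FOXA motif TGTTTAC, to the GC box GGGCGG, to the GRHL motif AACCNGTT or to the TATA box TATAAA, on either strand.
KRT8 intron, both siINO80 lists (chr12:53319038-53319237, plus strand): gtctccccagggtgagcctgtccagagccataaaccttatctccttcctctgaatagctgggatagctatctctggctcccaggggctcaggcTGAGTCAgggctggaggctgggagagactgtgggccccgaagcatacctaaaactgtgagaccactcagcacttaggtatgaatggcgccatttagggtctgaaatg
KRT18 intron, all lists (chr12:53343667-53343830, plus strand): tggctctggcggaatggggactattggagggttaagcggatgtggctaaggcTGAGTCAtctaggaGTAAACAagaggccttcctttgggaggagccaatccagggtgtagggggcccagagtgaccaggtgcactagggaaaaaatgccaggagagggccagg
KRT18 downstream, siINO80#2 (chr12:53350839-53351038, plus strand): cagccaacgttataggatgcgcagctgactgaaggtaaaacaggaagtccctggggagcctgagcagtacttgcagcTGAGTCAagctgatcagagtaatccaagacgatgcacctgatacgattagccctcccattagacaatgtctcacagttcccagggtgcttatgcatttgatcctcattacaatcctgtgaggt
KRT19 upstream, all lists (chr17:39686460-39686659, plus strand): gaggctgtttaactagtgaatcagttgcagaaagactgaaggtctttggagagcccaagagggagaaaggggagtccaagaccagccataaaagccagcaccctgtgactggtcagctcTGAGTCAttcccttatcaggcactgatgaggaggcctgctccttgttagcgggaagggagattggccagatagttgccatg
KRT23 3′ end, siINO80#2 (chr17:39078697-39078896, plus strand): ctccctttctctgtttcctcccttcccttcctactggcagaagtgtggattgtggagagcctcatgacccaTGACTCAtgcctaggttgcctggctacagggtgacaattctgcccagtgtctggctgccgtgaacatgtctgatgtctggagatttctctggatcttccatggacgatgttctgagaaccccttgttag

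The first comparison asked how many keratin genes had a peak at all. The lists of NTG, siINO80#1 and siINO80#2 counted 69730, 69333 and 53113 peaks. Their median reads at the summit, as recovered from the peak values, were 20, 24 and 25. These lists stood on unknown numbers of sequenced reads. A summit lay within 1 kb of an annotated start site for 3 of 55 keratin genes in NTG (5.45%, 95% Wilson interval 1.87 to 14.9). In siINO80#1 there were 4 such genes (7.27%, 2.86 to 17.3), and in siINO80#2 there were 3. Over all protein-coding genes this share was 60.8% in NTG, 60.4% in siINO80#1 and 53.7% in siINO80#2. KRT8, KRT18 and the stratified epithelial gene KRT15 had such a promoter peak in all 3 lists, and KRT80 in siINO80#1. KRT19 had none within this distance. The intervals cover counting error only and take genes as independent, which neighbours are not.

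Within the gene or 5 kb on either side, 10 keratin genes had a peak in NTG (18.2%, 10.2 to 30.3), 10 in siINO80#1 and 7 in siINO80#2 (12.7%, 6.3 to 24). All protein-coding genes had one in 75.8%, 74.7% and 68.1% of cases. Keratin genes were short, with a median length of 7.1 kb against 27.2 kb over all genes, and a short gene offers fewer bases in which a peak can fall. Among genes under 10 kb long, a peak was found at 51.7% in NTG, 49.9% in siINO80#1 and 41.2% in siINO80#2. The 42 keratin genes of this length had one at 6 (14.3%, 6.72 to 27.8), 7 (16.7%, 8.32 to 30.6) and 5 (11.9%, 5.19 to 25). In each list the upper limit for the keratins was thus under the share of short genes as a whole.

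**Figure D1:**
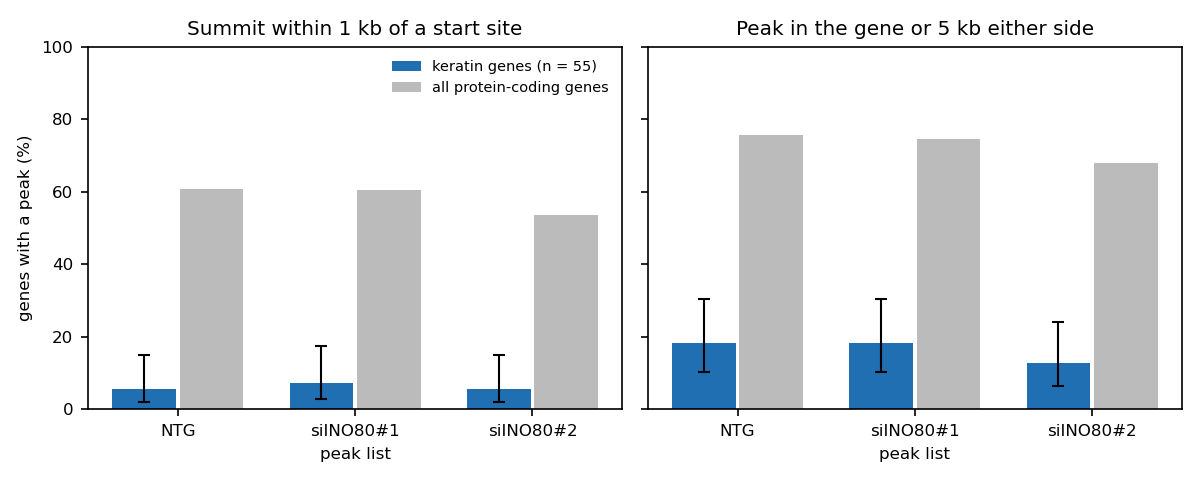
Share of genes with a peak, in percent, for the 3 lists, by a summit within 1 kb of a start site (left) and by a peak in the gene or 5 kb on either side (right). Blue bars are the 55 keratin genes with 95% Wilson intervals, grey bars all 20163 protein-coding genes, and the blue bars reach at most 18.2% while the grey ones start at 53.7%.

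Keratin promoters also differed in sequence from those of other genes. Over the bases from 250 before to 50 after the canonical start, the median GC content was 48.3% for keratins and 63.3% for all genes. The ratio of observed to expected CpG dinucleotides had a median of 0.188 against 0.773, and it was under 0.6 in 51 of 55 keratin promoters (92.7%) and in 33.1% of all promoters. The 4 exceptions were KRT18, the duct keratin KRT7, the root sheath keratin KRT72 and KRT222. TATAAA was present in 27 keratin promoters (49.1%) and 9.8% of all promoters, whereas the GC box was present in 13 (23.6%) and 60.9%. Among the 6669 promoters under 0.6, a summit within 1 kb of the canonical start was found at 19.8% in NTG, 19.2% in siINO80#1 and 15.7% in siINO80#2. Of the 51 such keratin promoters, 1 had one in NTG (KRT8), 2 in siINO80#1 (KRT8 and KRT80) and 1 in siINO80#2 (KRT8). The part of the sequence in the low count of keratin peaks was not tested beyond this split.

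The keratins of each tissue were then set side by side. Of the 5 simple epithelial keratins, KRT8, KRT18 and KRT19 had regions, and KRT7 and the intestinal keratin KRT20 had none. Of the 17 stratified epithelial keratins, 3 had a region, namely KRT15, KRT3 and KRT10. No peak of any list lay at KRT5 and KRT14, the pair of basal keratinocytes, at KRT1, KRT2, KRT9, KRT4, KRT13, KRT12 or KRT76, or at the wound and nail keratins KRT6A, KRT6B, KRT6C, KRT16 and KRT17. Of the 17 hair shaft keratins, KRT81, KRT86, KRT37 and KRT39 had a region and 13 had none. The 9 root sheath keratins had 3 (KRT72, KRT27 and KRT28) and the 7 others had 3 (KRT80, KRT222 and KRT23). The hair shaft genes without a peak were KRT31, KRT32, KRT33A, KRT33B, KRT34, KRT35, KRT36, KRT38, KRT40, KRT82, KRT83, KRT84 and KRT85. The root sheath genes without one were KRT25, KRT26, KRT71, KRT73, KRT74 and KRT75, and the others were KRT24, KRT77, KRT78 and KRT79.

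Other genes of the filament system and of cell identity were counted beside the shares of all genes given above, 60.8%, 60.4% and 53.7%. Of 9 genes for desmosomes and filament linkers, which anchor keratin filaments at cell contacts, 9 had a promoter peak in NTG, 7 in siINO80#1 (77.8%) and 6 in siINO80#2 (66.7%). The plakophilin PKP3 and the envoplakin gene EVPL had none in either siINO80 list, and the plectin gene PLEC had none in siINO80#2. Of 16 other intermediate filament genes, 5, 6 and 4 had one (31.2%, 37.5% and 25%), with the lamins LMNA and LMNB1, the synemin gene SYNM and the lens filament gene BFSP1 in all lists. None of 8 cornified envelope genes, which build the outer skin barrier, had one in any list. The 10 hepatocyte markers had a promoter peak in 10, 9 and 8 cases. AFP had none in either siINO80 list, and the albumin gene ALB had none in siINO80#2. Of 8 keratinocyte markers DSC3 alone had a promoter peak, in every list. Of the 34 KRTAP genes between the type I keratins of chromosome 17, 4 had a promoter peak in NTG, 2 in siINO80#1 and 1 in siINO80#2.

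The clusters were next read as stretches of chromosome. The chromosome 12 cluster spanned 0.784 Mb (chr12:52562780-53346690) and the chromosome 17 cluster 0.97 Mb (chr17:38810917-39781094). On chromosome 12 there were 12 peaks in NTG, 13 in siINO80#1 and 6 in siINO80#2, or 15.3, 16.6 and 7.65 per Mb, beside genome-wide densities of 24.4, 24.3 and 18.6 per Mb. The end of the cluster at KRT8 and KRT18 held 7, 8 and 5 of these peaks. The remaining 0.723 Mb held 5, 5 and 1, or 6.91, 6.91 and 1.38 per Mb. The 500 kb beyond the KRT18 end had 44, 38 and 42 peaks per Mb. The 500 kb before the KRT80 end had 14, 18 and 10. These were close to the cluster as a whole but above the remaining 0.723 Mb in every list.

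On chromosome 17 there were 17, 16 and 12 peaks, or 17.5, 16.5 and 12.4 per Mb, and most of them lay more than 5 kb from any keratin gene. KRT19 had 2 of them in each list, and the other 0.955 Mb held 15, 14 and 10. The 500 kb before this cluster had 28, 22 and 10 peaks per Mb, the last below the cluster itself. The 500 kb after it had 42, 26 and 26. The longest stretch of the chromosome 12 cluster without a peak in any list was 196.2 kb and held KRT73, KRT2, KRT1, KRT77 and KRT76. The next, of 148.9 kb, held KRT6B, KRT6C, KRT6A, KRT5, KRT71 and KRT74. In the chromosome 17 cluster the longest such stretch, of 134.8 kb, held no keratin gene, and the next, of 113.5 kb, held KRT24, KRT25 and KRT26. A shorter stretch of 105.5 kb held KRT37, KRT38, KRT32, KRT35, KRT36 and KRT13, and ended at the KRT15 and KRT19 region. Among the first 3 other genes on each side of the clusters, NR4A1, ATG101, EIF4B and SPRYD3 (chromosome 12) and SMARCE1 and EIF1 (chromosome 17) had promoter peaks in all 3 lists. TNS2 and CCR7 had one in NTG alone, and SMIM41, TNS4, GAST and HAP1 had none in any list.

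**Figure D2:**
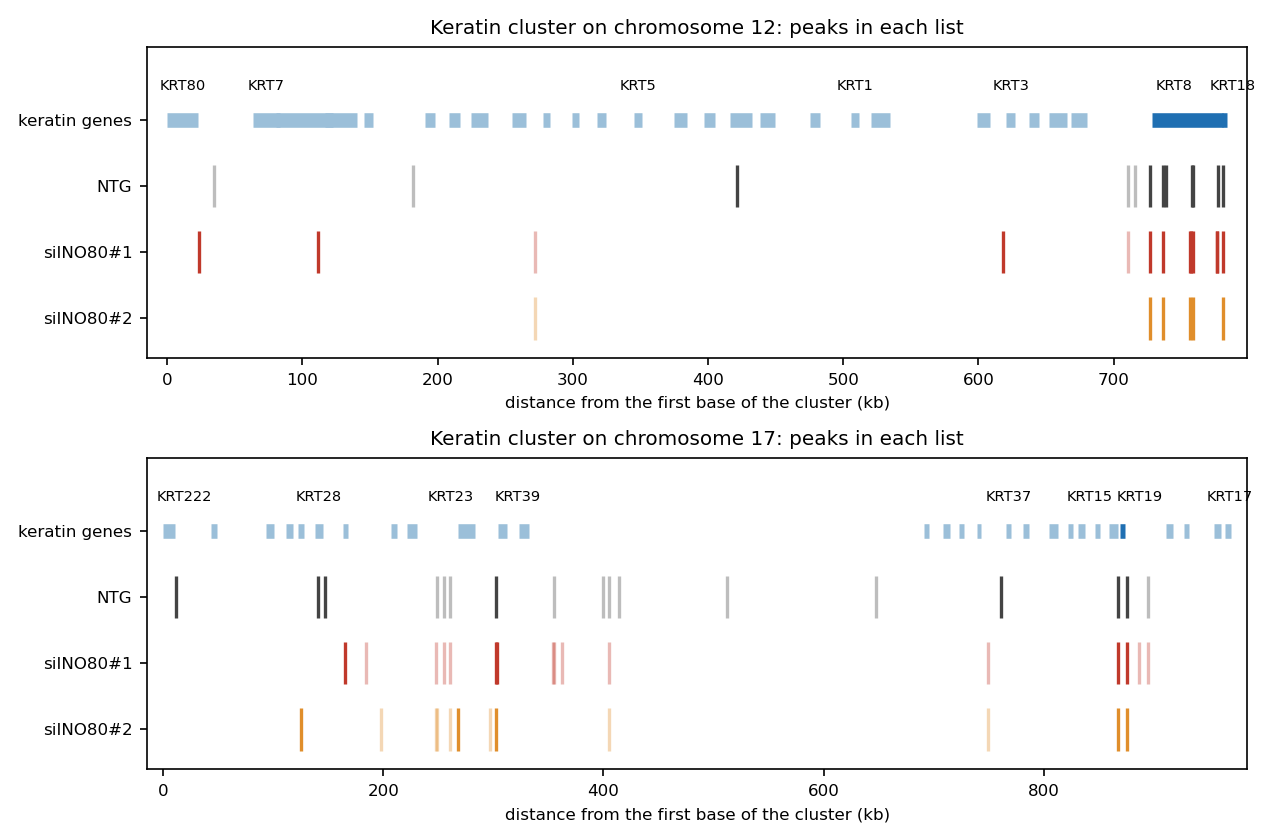
Peaks of the 3 lists along the keratin clusters of chromosome 12 (top) and chromosome 17 (bottom), by distance from the first base of the cluster in kb. Blue blocks are keratin genes, with KRT8, KRT18 and KRT19 in dark blue. Strong ticks are peaks within 5 kb of a keratin gene and pale ticks are the others, and the chromosome 12 ticks crowd at the KRT8 and KRT18 end.

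KRT8 is the type II keratin of the simple epithelial pair. Its canonical start, on the minus strand of chromosome 12, had a peak in all 3 lists, with summits at -74, -117 and -20 bp in NTG, siINO80#1 and siINO80#2, negative numbers lying upstream. Fold enrichment, the reads at the summit plus 1 over the local background of the same list plus 1, was 5.23 in NTG, 2.96 in siINO80#1 and 2.47 in siINO80#2. The recovered reads at the summit were 53, 35 and 28, over local backgrounds of 9.33, 11.15 and 10.73 reads. Because the lists may differ in depth, which is unknown, each value was also placed among all peaks of its own list. By fold enrichment the KRT8 start stood at percentile 78.7 in NTG, 44 in siINO80#1 and 14.4 in siINO80#2. By reads at the summit it stood at percentiles 90.8, 71 and 57.8 of these lists. It was therefore lower in both siINO80 lists by either measure, but the fall was smaller by reads. The lists were not compared by a test.

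Longer KRT8 transcripts begin at the KRT18 end, 18 start sites being annotated, so that the 52.77 kb gene record reaches far upstream of the canonical start. A second peak of all 3 lists lay in an intron of these transcripts, -22460 bp from the canonical start in NTG, with fold enrichments of 5.23, 3.18 and 2.62. Its percentiles were 78.7, 50.5 and 24.7, the same order as at the start. Another, on the 3′ side of the gene, had fold enrichments of 3.57, 2.18 and 2.72 and percentiles of 55.4, 3.2 and 31.2. In the long intron, chr12:53318871-53319359 was the 1 keratin region with a peak in each siINO80 list but none in NTG. Its fold enrichments were 2.52 in siINO80#1 and 2.16 in siINO80#2, at percentiles 20.3 and 2.9, so both were weak by this measure. By reads at the summit these peaks stood at percentiles 57.1 and 39.1. Of all 111260 regions, 5.19% had this pattern. The peaks of the siINO80 lists overlap by a few bases here, and the region leaves this class where an overlap of at least 50% is asked for. Between it and the shared intron peak lay a region of NTG (2.97) and siINO80#1 (2.71), and an NTG peak of 2.28 lay -2964 bp from the canonical start.

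The type I partner KRT18, on the plus strand, overlaps the start of the long KRT8 transcripts. Its promoter held the highest CpG ratio of the keratins, 0.88, and a GC content of 74.0%. Even so, the summits lay inside the gene, at 829, 769 and 835 bp from the canonical start in NTG, siINO80#1 and siINO80#2. This is an intron of the canonical transcript, an exon of other KRT18 transcripts, and the place where long KRT8 transcripts start. Fold enrichments there were 3.69, 3.04 and 3.2, at percentiles 57.1, 45.6 and 51.1. The difference between lists was smaller than at the KRT8 start. This is the keratin region whose summit window held both an AP-1 and a FOXA motif, FOXA factors being regulators of liver genes. Another 3 weak peaks, each in 1 list, lay -3915 to -3283 bp from the KRT18 start, with fold enrichments of 2.06 and 2.02 in siINO80#1 and 2.34 in NTG. Downstream of KRT18, 8037 bp from the start, siINO80#2 alone had a peak, with a fold enrichment of 2.66 and an AP-1 motif.

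**Figure D3:**
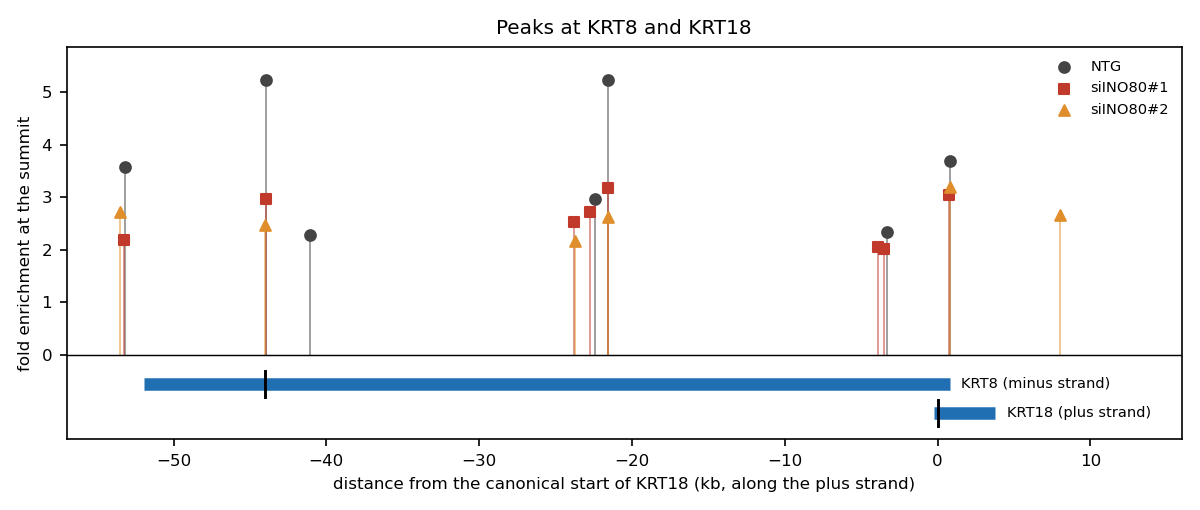
Fold enrichment at the summit of each peak at KRT8 and KRT18 (vertical axis, a ratio) by distance from the canonical start of KRT18 along the plus strand in kb, for the 3 lists. Bars below are the gene records and black marks their canonical starts. At the KRT8 start and in its long intron, the NTG points (5.23) stand above those of both siINO80 lists.

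KRT19, the smallest keratin and one that lacks the usual tail, lies at the other cluster. No summit was within 1 kb of any of its start sites. The strongest summit of its main peak lay about as far upstream in every list, at -2000, -2010 and -2029 bp in NTG, siINO80#1 and siINO80#2. These positions were outside any annotated gene. In NTG the peak was 831 bp wide and had another summit at -1436 bp. It was 228 bp wide in siINO80#1 and 363 bp in siINO80#2. Fold enrichments were 4.02, 2.79 and 2.74, at percentiles 64, 36.3 and 31.8. The recovered reads were 41, 44 and 41 over local backgrounds of 9.45, 15.14 and 14.33. The siINO80 lists thus had no fewer reads there and a higher local background. Over all peaks, however, median reads at the summit were 20, 24 and 25. By reads the KRT19 peak stood at percentiles 84.4, 80.5 and 78.8 of NTG, siINO80#1 and siINO80#2. The summit window held an AP-1 motif.

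A peak in an intron of long KRT15 transcripts, within 5 kb of KRT19, counted for both genes. It lay -3085, -3048 and -3025 bp from the canonical KRT15 start but within 1 kb of the start sites of longer KRT15 transcripts, so the KRT15 promoter call rests on these transcripts alone. Fold enrichments were 2.48 in NTG, 2.96 in siINO80#1 and 2.14 in siINO80#2. The percentiles were 7.2, 44 and 2.5, with siINO80#1 highest, whereas NTG was highest in the other shared keratin regions. KRT15 is a keratin of basal and stem cells of stratified epithelia. By reads at the summit, 32, 52 and 38, this region stood at percentiles 75.5, 85.8 and 75.3 of its lists. Its local background, which enters fold enrichment but not the rank by reads, was 12.32, 16.9 and 17.2 reads.

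**Figure D4:**
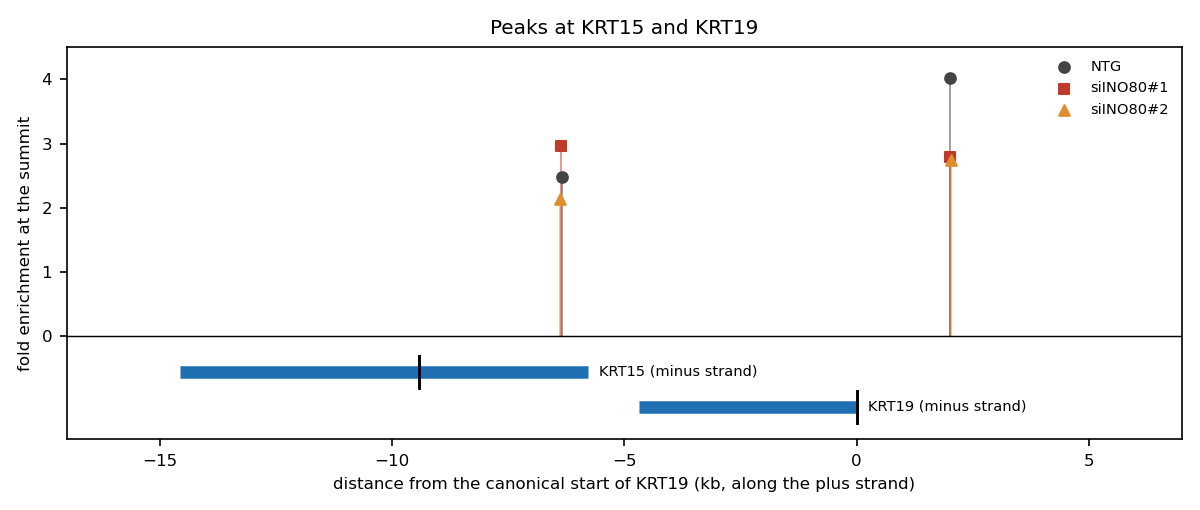
Fold enrichment at the summit of each peak at KRT15 and KRT19 (vertical axis, a ratio) by distance from the canonical start of KRT19 along the plus strand in kb, for the 3 lists. Bars below are the gene records and black marks their canonical starts, and neither canonical start carries a peak.

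The keratin regions in every list were then compared as a set. Of 27 keratin regions, 7 were in all 3 lists (25.9%) beside 26.8% of all regions, and 8 were in NTG alone (29.6%) beside 24.4%. These shares were near the background. They split unevenly, however, between the simple epithelial genes and the rest: at KRT8, KRT18 and KRT19, 6 of 13 regions were in all 3 lists, 2 were in a pair of lists and 5 in a single list. At the other keratins, 1 of 14 regions was in all 3 lists and 13 were in a single list. The region of KRT15 and KRT19, in all 3 lists, was counted here and in the medians below on the KRT19 side only. No test was made of this split. In NTG the peaks at KRT8, KRT18 and KRT19 (n = 9) had a median percentile of 55.4, and those at the other keratins (n = 7) 35.6. In siINO80#1 the medians were 33.3 (n = 10) and 33.7 (n = 6), and in siINO80#2 they were 25.4 (n = 8) and 57.1 (n = 3). The order of the sets depends on the measure of strength. By reads at the summit the medians were 32 and 17 in NTG, 30.5 and 20.5 in siINO80#1, and 26.5 and 28 in siINO80#2, so that the simple epithelial genes were higher in siINO80#1 by reads but not by fold enrichment.

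In 6 of the 7 shared keratin regions the percentile was lower in both siINO80 lists than in NTG, and this held for 42.9% of the 29863 regions in all 3 lists. The median percentile of the 7 regions was 64 in NTG, 44 in siINO80#1 and 31.2 in siINO80#2, against 76.2, 76.4 and 69.5 over all such regions. For the KRT8 start, 1.6% of all such regions were lower in both siINO80 lists by at least its smaller difference of -34.7 percentile points. That share was 2.96% for the KRT8 intron, 3.11% for the KRT19 upstream peak, 3.42% for the KRT39 region, 4.37% for the 3′ side of KRT8 and 22.6% for the KRT18 intron. The regions of KRT8 and KRT18 are neighbours and share a gene, and lists have no replicate error, so these shares describe ranks in 3 lists and are no test. The lowest background of a list, which moves with its depth, was 3.82 reads in NTG, 5.16 in siINO80#1 and 5.34 in siINO80#2, and its part in these ranks was not tested.

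**Figure D5:**
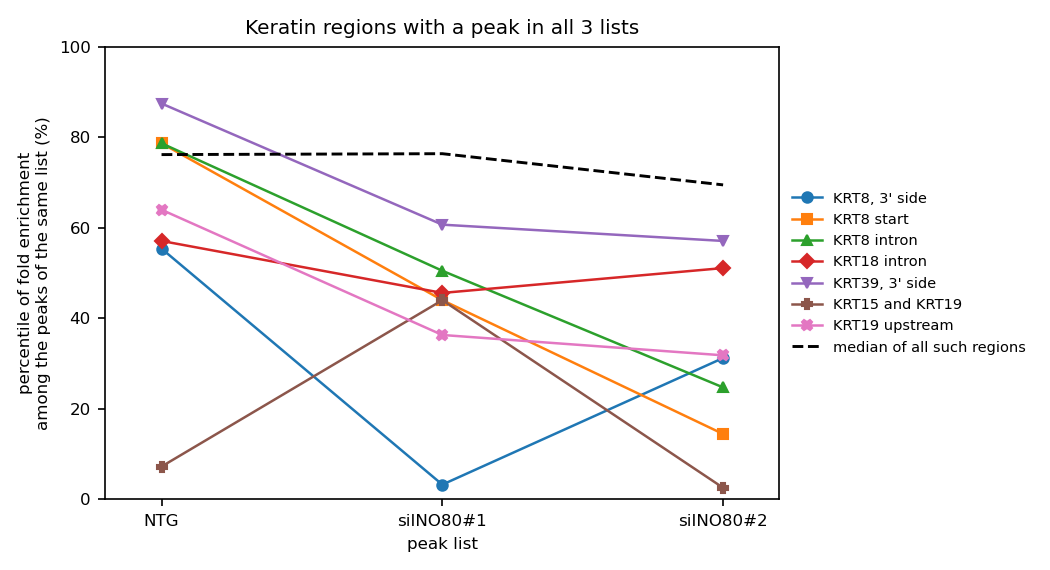
Percentile of fold enrichment among the peaks of the same list (vertical axis, in percent) for the 7 keratin regions with a peak in all 3 lists. Solid lines are the regions and the dashed line is the median of all 29863 regions in all 3 lists, which lay at 76.2, 76.4 and 69.5. Every solid line but that of KRT15 and KRT19 is lower in both siINO80 lists than in NTG.

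Outside the simple epithelial genes, the strongest keratin region of the NTG list was on the 3′ side of the hair keratin KRT39, in an intron of a long non-coding RNA gene and 9980 bp from the KRT39 start. It had a peak in all 3 lists, with fold enrichments of 6.51 in NTG, 3.58 in siINO80#1 and 3.44 in siINO80#2. At percentiles 87.5, 60.7 and 57.1 it stood above each peak of KRT8, KRT18 and KRT19 in its list by fold enrichment. By other measures it did not: its −log10 q was 16.8 in NTG, against 19.8 at the KRT8 start, and 7.34 in siINO80#1, against 9.05 at the KRT15 and KRT19 peak, and its reads at the summit were 35 and 31, against 53 and 52. Its place beside KRT39 is by distance only. A second peak there, in siINO80#1 alone, had a fold enrichment of 2.16.

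The promoter of KRT80, a keratin found in many epithelia, had a peak in siINO80#1 alone, with a fold enrichment of 2.75. Its strongest summit lay at -301 bp, in an intron of the long non-coding RNA gene LINC00592, and its window held an AP-1 motif. On the 3′ side of KRT80, NTG alone had a peak of 3.26. KRT23 had a peak at its 3′ end in siINO80#2 alone, with a fold enrichment of 4.01 at percentile 68.9, the highest of any keratin region in a siINO80 list alone, and an AP-1 motif. In NTG alone the highest fold enrichments were 3.74 in KRT28, 3.26 at KRT80 and 3.04 at KRT37. KRT28 had a further NTG peak of 2.71. The other regions, each in 1 list, had fold enrichments of 2.31 (KRT81 and KRT86, siINO80#1), 2.74 (KRT72, NTG), 2.76 (KRT3, siINO80#1), 2.91 (KRT222, NTG), 2.84 (KRT27, siINO80#2) and 2.85 (KRT10, siINO80#1).

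The motifs of the summit windows were counted last. AP-1 was present in 6 of 27 keratin regions (22.2%) beside 11.3% of all regions, FOXA in 1 (3.7%) beside 4.86%, the GC box in 1 beside 10.4%, the TATA box in 3 (11.1%) beside 10.8% and GRHL, the motif of grainyhead-like factors of epithelia, in none beside 1.39%. By class, AP-1 was in 2 of the 7 keratin regions in all lists (15.2% over all regions of this class), in 4 of the 11 without an NTG peak (13.3%) and in none of the 8 in NTG alone (5.13%). Over all regions of both siINO80 lists that had no NTG peak it was in 30.9%, and the 1 such keratin region, in the KRT8 intron, held it. Of the keratin regions in a single siINO80 list, 3 of 10 held it, beside 10.5% over all such regions. The excess of this motif was largest in regions of both siINO80 lists without an NTG peak. That excess was known for the whole lists before, so the keratin counts are no independent support. A match is a run of letters and not a shown binding site.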

How the data were processed

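ATAC-seq peak lists of HepG2 cells were analysed for 3 groups of 3 replicates. The authors deposited 1 list per group, in which the replicates were pooled or called together, and nothing says that replicates came from separate cultures. The fold enrichment of each peak was deposited as a ratio of reads at the summit to local background, which the values fit with 1 added to both, and its p and q as deposited are −log10 values, with a lowest −log10 q of 1.3 in each list. The submitters' processing notes list hg19, Trim Galore 0.4.1, Bowtie2, SAMtools, MACS2 and deepTools 2.2.4, with no order or role. How the transposase offset was treated and the criterion of the filter after calling are not given in the sources used here. Read depth per sample is unknown.

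The members, lists and motifs were chosen with earlier results of these data known. Genes and start sites were those of GENCODE release 44 lifted to GRCh37, on which no peak passed a chromosome end. Peak intervals with more than 1 summit entered once, with the value of the strongest summit, but each summit was used for start sites. Peaks overlapping by 1 bp were merged into regions between lists, and the percentile is the midrank of fold enrichment within 1 list. The canonical start is that of the Ensembl canonical transcript. Reads at the summit were solved from fold enrichment and −log10 p, taking the formulas of MACS2 as given. The error in −log10 p was at most 2.77e-05 at keratin peaks, and the next best whole number was off by 0.0909 or more.

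Named genes were KRT8, KRT18 and KRT19, other keratins with a promoter peak, those with a region of both siINO80 lists but not of NTG, the 3 of highest fold enrichment in NTG alone, and the 5 others with the most regions, of which ties were kept so that every keratin with a region is named. LOR was matched under its present symbol LORICRIN. No test between lists was made, because each group had 1 list. Intervals are 95% Wilson intervals. The alternatives were a −log10 q of at least 5, equal list sizes of 53113 peaks, other flanks, start site distances, start sites, summits and overlaps, and other measures of strength. The canonical start and the ranks of shared regions were added after seeing the data. Read recovery was tested on 841 simulated peaks and overlaps against bedtools 2.31.1 on 240, with 100% recovered. The software was Python 3.11.15 with pysam 0.24.0, scipy 1.17.1, pandas 2.3.3, numpy 2.4.6 and matplotlib 3.10.9. Some sequences are not reported here.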

Additional observations from a re-analysis of the deposited data

Results flagged for a closer look

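Peak density in the chromosome 12 keratin cluster moved in opposite directions with the siRNAs against INO80. It was 15.3 peaks per Mb in NTG, 16.6 in siINO80#1 and 7.65 in siINO80#2, which differed from NTG by 1.3 and -7.65 peaks per Mb. The difference between the siRNAs was not tested, since each group had 1 list. It was 1 of 6 summaries compared for opposite directions. The siINO80#2 list was also the shortest, and at equal list size the NTG and siINO80#1 densities were 10.2 and 8.93 per Mb, so that both siINO80 lists were then lower than NTG.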

How the results depend on the processing

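Of 83 alternative values, 45 moved by no more than 1.5 times and 38 by more. No paired analysis was possible because each list pools its replicates, and no replicate could be left out for the same reason. Under a −log10 q of at least 5, keratin genes with a peak in the gene or flank were 4 in NTG and 5 in siINO80#1, distinct keratin peaks 6, 6 and 4 in NTG, siINO80#1 and siINO80#2, and peaks per Mb 7.65, 3.83 and 2.55 on chromosome 12 and 6.18, 3.09 and 4.12 on chromosome 17. Regions in all 3 lists were then 3, in NTG alone 1 and in both siINO80 lists alone 0. At equal list size, densities were 10.2 and 8.93 per Mb on chromosome 12 and 11.3 and 7.22 on chromosome 17 in NTG and siINO80#1, siINO80#1 had 10 keratin peaks, and 4 regions were in NTG alone. With the gene body only, 5 genes had a peak in NTG and 5 in siINO80#1, keratin peaks were 9, 10 and 7, and 4 regions were in all 3 lists and 4 in NTG alone. With a flank of 10 kb, 16 genes in siINO80#1 and 13 in siINO80#2 had a peak, siINO80#2 had 17 peaks and 3 regions were in both siINO80 lists alone. The 1 region in both siINO80 lists alone was 0 with an overlap of at least 50% and 0 with peaks merged within 500 bp. Within 2.5 kb of a start site, promoter peaks were 6 in NTG and 5 in siINO80#2. Ranked by −log10 q, the median percentile at KRT8, KRT18 and KRT19 in siINO80#1 was 52.2, and ranked by reads it was 63.8, with 53.6 in siINO80#2. The number of shared keratin regions lower in both siINO80 lists was 6 under both rankings, beside 43.2% and 43.3% of all shared regions. The cause of these shifts was not tested beyond the construction of each alternative.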
